A study of Mus musculus with 8 samples.

Results

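Dicer1 conditional knockout mice were compared with littermate controls in the apical part of the organ of Corti, the sensory epithelium of the cochlea, at postnatal day 16. Of the 8 arrays in the series, 4 belonged to this comparison and were chosen by sample title: 2 from conditional knockouts (cKO) and 2 from controls. The cKO mice had the genotype Atoh1-Cre;Dicer1(flox/flox) and the controls Atoh1-Cre;Dicer1(flox/wt), with the alleles Dicer1tm1Bdh and Tg(Atoh1-cre)1Bfri. Cre and at least 1 floxed Dicer1 allele were therefore present in every animal. Cre driven by Atoh1 acts mainly in hair cells, while the supporting, nerve, bone and connective tissue cells dissected with them largely keep the gene. Each array held RNA from the apical segments of both cochleae of a single mouse. In such bulk samples, fewer cells of a type and less RNA per cell cannot be told apart. Expression was described over 13221 genes, each as the log2 of the deposited MAS5 signal, and differences are cKO minus control on that log2 scale, so that 1 unit is a 2-fold difference.

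Dicer1 cuts hairpin precursors into mature microRNAs, which repress messenger RNAs that match their seed, bases 2 to 8 from the 5′ end. Hair cells are known for the co-transcribed microRNAs of the miR-183 family, and mice that lose Dicer1 in hair cells are known to lose hearing and, with time, hair cells. Inner hair cells signal to the auditory nerve through ribbon synapses, outer hair cells amplify sound, and hair cells at the apex respond to low frequencies. The arrays report messenger RNAs and not mature microRNAs. The 3 family members are shown because their loss in hair cells is what the genotype is designed to cause, with seeds in capitals, from RefSeq on GRCm38.p6:
miR-96-5p: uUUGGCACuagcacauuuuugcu
miR-182-5p: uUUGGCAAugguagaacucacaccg
miR-183-5p: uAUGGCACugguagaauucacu
The seed of miR-96-5p differs from that of miR-182-5p in 1 of 7 bases and from that of miR-183-5p in 1 base.

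Dicer1 itself, the targeted gene, did not separate the genotypes. Its log2 signal was 9.41 and 9.17 in cKO and 9.57 and 9.19 in controls, a difference of -0.09 ± 0.22 (SE), and a second probe set gave -0.21. Where its probes lie relative to the floxed stretch is not known, so this is no check of the deletion or of the labels.

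Several defining genes of the labelled tissue had high signal in all 4 apical samples, but the outer hair cell gene Slc26a5 did not. Tectb, which encodes beta-tectorin of the tectorial membrane, had log2 signals of 13.28 and 13.48 in cKO and 12.52 and 13.44 in controls, and Sox2, a supporting cell factor, lay between 10.81 and 10.99. The hair cell myosin Myo7a was at 9.17 and 8.42 in cKO and 8.96 and 8.70 in controls. Slc26a5, the motor protein of outer hair cells, was under the signal filter of 38.71 (5.274 in log2) in its mean over the 8 arrays, at 5.14 and 5.05 in cKO apex and 5.04 and 5.31 in control apex. Other tissues were abundant as well: the myelin gene Mbp lay between 14.19 and 14.59, the fibrocyte gene Otor between 14.07 and 14.52, and the osteocyte gene Dmp1 between 12.74 and 13.18.

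One control stood apart. In control apex replicate 1, Xist, the RNA of the inactive X chromosome, was at 12.54, against 6.53 in the other control and 8.23 and 6.91 in the cKO samples, so this sample was the only female one of the 4. Its melanocyte gene Dct, which marks the stria vascularis, was at 11.87, against 6.19 in the other control and 6.91 and 9.36 in cKO. Log2 values correlated across genes at r = 0.9615 between the 2 controls, the lowest of the 6 apical pairs, and at 0.9748 between the 2 cKO samples. Control apex replicate 2 correlated more closely with each cKO sample, at 0.9774 and 0.9766, than these did with each other. Replicates differed over 2-fold in 718 genes between the controls and in 443 between the cKO samples. Many results are also given without control apex replicate 1, and the ranges of list medians on leaving out each sample come at the end. When that control is left out, the lone control is assumed to vary like the other groups.

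No gene passed the test between genotypes in the apex (0% of 13221 at an adjusted p under 0.05 by limma, with Benjamini-Hochberg adjustment over all genes). At an unadjusted p under 0.05, 290 genes (2.19%) were found, 146 (1.1%) higher in cKO and 144 (1.09%) lower, where 661 would be expected by chance, and 436 were found without control apex replicate 2. Centring each array on its 75th percentile gave 217 higher and 113 lower. Differences ran from -0.49 at the 5th percentile to 0.43 at the 95th, with a median of 0.00, and the median standard error was 0.25. Both cKO samples lay above both controls in 1982 genes (15%) and below both in 2144 (16.2%). Both cKO samples lay at least 2-fold above both controls in 8 genes (0.0605%) and at least 2-fold below in 10 (0.0756%), and leaving out any 1 sample, which leaves fewer values to separate, gave 106 to 235 such genes. An exact permutation test of 2 against 2 samples cannot give a two-sided p below 0.333.

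The gene of smallest p was Tmem267, which encodes a little-studied membrane protein. Its log2 signal was 8.43 and 8.42 in cKO and 5.98 and 5.73 in controls. The groups were 2.44 apart, the widest gap in the apex, and the difference was 2.57 ± 0.25 (SE), a 5.92-fold higher mean, with an adjusted p = 0.134 in limma. Under the other settings the difference stayed between 2.28 and 2.70 and the adjusted p between 0.0323 and 1, and the low end, from a fit without an intensity trend, was the single setting in which the gene passed. Pnmt, the enzyme that makes adrenaline from noradrenaline, had the next smallest p on the higher side, with 6.77 and 6.89 against 5.34 and 5.22, a difference of 1.55 ± 0.29, although its control values lay at the filter's signal. Both genes had the same pattern in the base, at 2.48 ± 0.25 for Tmem267 and 1.5 ± 0.29 for Pnmt.

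The other genes that led on the higher side had smaller gaps than these. Leading genes in both directions were named only where the apical groups did not overlap, so that separation is no finding about them. Celsr2, an atypical cadherin of planar polarity and a reported target of hair cell microRNAs, was at 9.75 and 9.58 in cKO and 8.84 and 9.0 in controls (0.74 ± 0.17), with 0.19 from a dimmer probe set. Serpina3n, a secreted protease inhibitor induced in injured glia, was at 8.45 and 8.76 against 7.67 and 7.68 (0.92 ± 0.22). Pcolce2, an enhancer of procollagen processing, was at 12.03 and 12.20 against 11.20 and 11.58 (0.72 ± 0.17). The heparan sulphate proteoglycan Sdc4 gave 0.62 ± 0.17, with 1.06 from a second probe set. Zfp9, a zinc finger gene, was 2-fold apart, at 8.71 and 8.70 against 7.65 and 7.57 (1.09 ± 0.32). Aph1a, a subunit of the gamma-secretase that cleaves Notch, gave 0.86 ± 0.23, but -0.17 and 0.19 from its 2 other probe sets. The transcript 9530082P21Rik (0.96 ± 0.25), the Golgi tethering gene Cog5 (0.96 ± 0.28), Mier2 (0.69 ± 0.19, with 0.25 and -0.03 from 2 other probe sets) and Hps1 (0.71 ± 0.20, with -0.10 from the next), which helps build melanosomes and related organelles, followed. Among the widest gaps were also Rassf2, a Ras-binding gene (0.92 ± 0.34, but -1.05 from a dimmer probe set), Tmem200a (1.19 ± 0.65), both with control values close to the filter, and the synaptotagmin Syt13 (1.01 ± 0.58), each at adjusted p = 1 in limma.

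On the lower side the leading gene was Clasrp, an SR-like splicing regulator. Its log2 signal was 7.53 and 7.22 in cKO and 9.25 and 8.82 in controls, a difference of -1.66 ± 0.24. Rpgrip1, a scaffold of the ciliary transition zone, was at 8.92 and 9.38 against 10.81 and 10.31 (-1.41 ± 0.23). Gt(ROSA)26Sor, the noncoding transcript of a locus much used for inserting transgenes, was at 8.63 and 8.28 against 10.19 and 9.78 (-1.53 ± 0.30). The groups of these 3 genes did not overlap, as their naming required. Steap4, a metalloreductase, was at 8.49 and 8.47 against 9.62 and 9.38 (-1.02 ± 0.20). Sh3bp5, an adaptor that binds Jnk, was at 10.69 in both cKO samples against 11.74 and 11.60 (-0.98 ± 0.26), with -0.72 from a second probe set. Trnt1, which adds the CCA end to transfer RNAs, gave -0.77 ± 0.18 but 0.34 from its other probe set, Ccnc, the cyclin of the Mediator kinase module, -0.93 ± 0.23 but -0.02 from the next, and Cd1d1, which presents lipids to T cells, -1.17 ± 0.36 but 0.01 from the next. St3gal6, a sialyltransferase, gave -0.87 ± 0.21, with -0.55 and -0.03 from its next 2 probe sets. Averaging in its probe sets under the filter (differences of 2.45 and -0.45) gave 0.11. The tRNA methyltransferase gene Trmt2b gave -0.89 ± 0.18, but 1.41 with its second probe set, under the filter, averaged in. Wide gaps were also seen in Smco3 (-1.47 ± 0.84), Rimkla, an enzyme that makes N-acetylaspartylglutamate (-1.0 ± 0.49), and the transcripts 4933407O12Rik (-0.91 ± 0.32) and 6330415G19Rik (-1.32 ± 0.61). None passed limma's test (adjusted p = 1 for each).

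**Figure D1:**
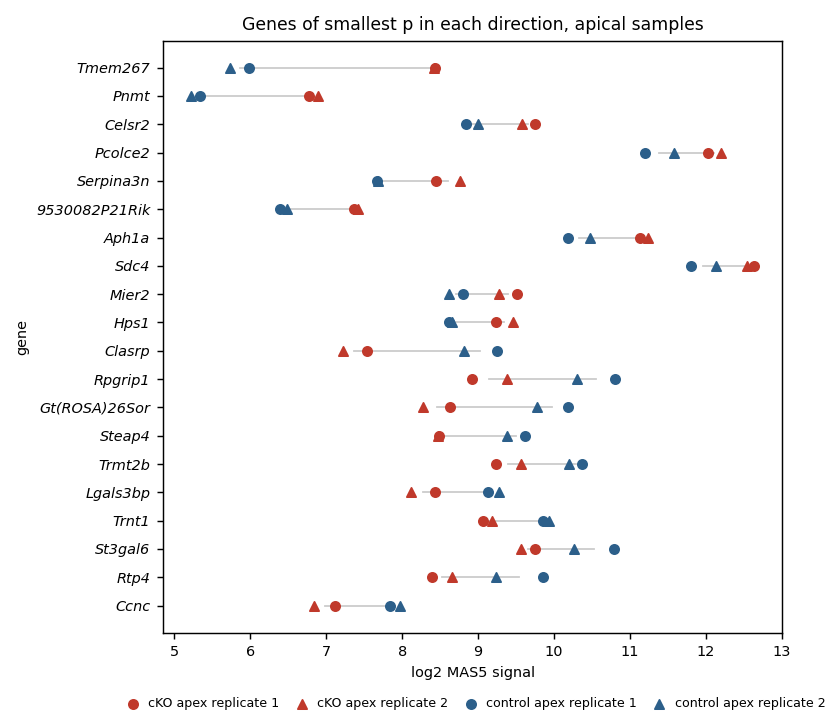
Log2 MAS5 signal (x axis) in each of the 4 apical samples for the 10 genes of smallest p in each direction (y axis), among genes whose apical groups do not overlap and whose means reach the filter. Red marks cKO and blue control, circles replicate 1 and triangles replicate 2, and grey lines join the group means. The separation is widest for Tmem267, from 5.98 in the higher control to 8.42 in the lower cKO sample.

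Several genes with wide gaps were at low signal. Crybb3, a lens crystallin, was at 6.26 and 5.93 in cKO and 3.22 and 3.77 in controls, and the F-box gene Fbxl8 at 6.05 and 5.97 against 4.01 and 4.67, so the control values lay under the filter's signal. Maz, a zinc finger transcription factor, showed the reverse, at 4.98 and 4.67 in cKO and 7.34 and 6.96 in controls. No fold change is given for these, because 1 group lay under the filter. Of the 18 genes at least 2-fold apart, 6 had both group means at or above the filter, 3 in each direction.

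Genes of the microRNA pathway, Dicer1 included, which process precursors, load Argonaute proteins or silence targets, were close to 0 as a group: 10 of 17 had a positive difference and 7 a negative one, with a median of 0.10, and none passed. Dgcr8, the partner of Drosha in the first cut, was at 9.19 and 9.26 against 8.75 and 8.87 (0.42 ± 0.18), but a second probe set gave -0.14. Drosha pointed the other way, at 10.71 and 11.12 against 11.22 and 11.65 (-0.52 ± 0.30), with -0.05 from a second probe set.

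Messenger RNAs reported as targets of the miR-183 family and other hair cell microRNAs were shifted little. Of 19 tested, 15 had a positive and 4 a negative difference, against 50.1% positive over all genes, and the median was 0.06. In 4 of them both cKO samples lay above both controls and in 1 below both (31.2% of all genes did not overlap in either direction). Celsr2, given above, was the only member with an unadjusted p under 0.05. Rdx, an actin linker of stereocilia, gave 0.23 ± 0.14, but -0.24 and 0.13 from its 2 other probe sets. The glucocorticoid receptor Nr3c1 gave 0.12 ± 0.14, but -0.27 and -0.16 from its others, so neither gene had a direction that its probe sets shared. Odf2, a centriole gene, gave 0.30 ± 0.21, and Mitf, the master factor of melanocytes, -0.23 ± 0.28. On leaving out control apex replicate 1, 12 of 19 were positive.

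Hair cell genes as a whole were centred on 0 in the apex. Over 4 lists with 55 tested genes, 28 had a positive and 27 a negative difference, with a median of 0.02. Both cKO samples lay above both controls in 10 and below both in 9, near the background of 31.2% for both directions. One, the synaptic calcium channel Cacna1d, had an unadjusted p under 0.05, and none passed limma's adjusted threshold.

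Genes of the hair bundle, which converts vibration into current, had a median of 0.08, with 15 of 23 tested members positive. The largest difference was that of Adgrv1, the giant adhesion receptor of the ankle links, at 7.40 and 7.32 in cKO and 6.14 and 7.04 in controls (0.76 ± 0.43, and 0.32 without control apex replicate 1). The tip link cadherin Pcdh15 was at 8.15 and 7.82 against 7.59 and 7.70 (0.34 ± 0.25). Tmc1, a pore subunit of the transduction channel, lay on the other side at 5.79 and 5.85 against 6.49 and 6.19 (-0.52 ± 0.39). The scaffold Ush1c (0.44 ± 0.34, and 0.20 without that control) and the actin bundler Espn (0.55 ± 0.57, and -0.01 without it) overlapped between groups. Espn was at 5.81 in control apex replicate 1 and between 6.89 and 6.94 in the other 3 samples.

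Of the genes of inner hair cells and ribbon synapses, 12 of 15 had a negative difference, with a median of -0.10, and both cKO samples lay below both controls in 4 (16.2% of all genes) and above in 3 (15% of all genes). Cacna1d, whose calcium current triggers release, was at 9.02 and 8.80 in cKO and 8.32 and 8.38 in controls (0.56 ± 0.22), while a dimmer probe set gave -0.26. Otof, the calcium sensor of vesicle fusion, was at 8.69 and 8.28 against 9.26 and 8.95 (-0.61 ± 0.32). Tbx2, which sets inner hair cell identity, gave 0.33 ± 0.17, the active zone scaffold Bsn 0.61 ± 0.54 and the cochaperone Dnajc5b -0.32 ± 0.30. With control apex replicate 1 left out, 9 of 15 were negative.

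Transcription factors and soma genes of hair cells went both ways (7 positive and 8 negative of 15, median -0.03). Pou4f3, which hair cells need to survive, was at 7.73 and 8.07 in cKO and at 5.86 and 8.55 in controls, and the calcium buffer Calb1 at 9.92 and 9.88 against 7.97 and 9.97. In both genes 1 library, control apex replicate 1, was low and the other control was as high as the cKO samples, and without it the differences were -0.65 and -0.07. Gfi1, a repressor that protects hair cells, was at 9.47 and 9.0 against 8.83 and 9.17. Acbd7, an acyl-CoA-binding gene, was at 8.12 and 8.55 against 8.72 and 8.99 (-0.52 ± 0.25), and the ciliary factor Rfx3 gave -0.40 ± 0.22. The small G protein Rasd2 gave 0.53 ± 0.35, and 0.12 without control apex replicate 1. Among outer hair cell genes (7 tested, median 0.13), both groups overlapped for Chrna9, Lmod3 and Ikzf2. The nicotinic receptor subunit Chrna9 gave 0.22 ± 0.65 (-0.11 without that control) and the actin nucleator Lmod3 0.47 ± 0.54 (-0.03 without it). The factor Ikzf2 gave 0.19 ± 0.22, with 0.21 from the next probe set. Averaging in its probe set under the filter (a difference of -1.31) gave -0.30. Strip2 gave -0.24 ± 0.23.

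The genes of supporting cells, which surround hair cells and exchange Notch signals with them, had a median of -0.03, with 9 of 24 positive. S100a1, a calcium-binding protein, was at 14.47 and 14.28 against 14.16 and 14.06 (0.27 ± 0.12), with 0.01 from a dimmer probe set. Hes1, a Notch effector, was at 9.02 and 8.96 against 9.20 and 9.36 (-0.29 ± 0.20), and the related Hey2 at 9.20 and 8.52 against 9.54 and 9.10 (-0.46 ± 0.35, and -0.25 without control apex replicate 1). The Notch ligand Jag1 gave -0.18 ± 0.19, with -0.34 and 0.03 from dimmer probe sets. Over the Notch pathway the median was -0.03, with 7 of 15 members positive.

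Genes of the tectorial membrane and spiral limbus had 8 of 10 positive differences and a median of 0.28. Col9a1, a chain of cartilage-type collagen, was at 14.26 and 14.46 in cKO and 13.82 and 14.12 in controls (0.39 ± 0.13), and Col2a1 at 13.49 and 13.48 against 12.70 and 13.33 (0.47 ± 0.20). Control apex replicate 1 had the lowest value for both, and for otogelin (Otog) as well, at 10.67 against 11.29 to 11.87. Without that sample the differences were 0.24 for Col9a1, 0.16 for Col2a1 and 0.05 for Otog, 5 of 10 were positive and the median was 0.01. Genes proposed to grade along the cochlea, which include morphogens and their antagonists, had the largest positive median of the 26 lists other than the sex-linked genes, 0.31, with 12 of 16 positive. Both cKO samples lay above both controls in 7 of 16 (15% of all genes) and below both in 0 (16.2% of all genes). Cyp26b1, which degrades retinoic acid, was at 7.41 and 7.23 against 6.81 and 6.79 (0.52 ± 0.31). Chrd, an antagonist of Bmp ligands, was at 7.12 and 7.02 against 6.67 and 6.64 (0.41 ± 0.25), and the activin subunit Inhba at 7.81 and 8.0 against 7.21 and 7.43 (0.59 ± 0.38). Bmp4 gave 0.81 ± 0.51 (0.46 without control apex replicate 1), with 10.94 in cKO apex replicate 1 and 9.34 in control apex replicate 1. Without control apex replicate 1 the list's median was 0.22, with 10 of 16 positive, and no member passed in any of these counts.

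The most uniform of the lists was the interferon response, the antiviral genes that type I interferon induces through Stat and Irf factors. All 17 tested members had a negative difference, with a median of -0.55, against a median of 0.00 and 50.1% positive over all genes. Both cKO samples lay below both controls in 12 of 17 (16.2% of all genes), and 4 had an unadjusted p under 0.05 (1.09% of all genes on that side). None passed limma's test over all genes. Without control apex replicate 1 the median was -0.34 and 16 of 17 were negative, and without cKO apex replicate 1 the median was -0.74. An interferon list had been seen to be lower in these data before, so the count is no independent evidence of direction.

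Lgals3bp, a secreted glycoprotein, had log2 signals of 8.43 and 8.12 in cKO and 9.13 and 9.27 in controls (-0.93 ± 0.20). Rtp4, an interferon-induced chaperone, was at 8.39 and 8.65 against 9.86 and 9.23 (-1.03 ± 0.25), while a probe set under the filter gave 1.05 and the average of both 0.01. Irf7, the factor that amplifies interferon production, was at 6.06 and 6.33 against 7.21 and 7.11 (-0.96 ± 0.53). The groups did not overlap in these 3 genes. Ifitm3, which blocks virus entry, was at 10.18 and 10.40 against 10.67 and 11.08 (-0.59 ± 0.21). Bst2, the tether of budding virus, was at 6.43 and 6.19 against 7.2 and 6.97 (-0.78 ± 0.32). Irf9, the DNA-binding part of the interferon complex, was at 8.45 and 8.54 against 8.84 and 8.83 (-0.34 ± 0.18). Usp18, which restrains the receptor, was at 6.63 and 6.46 against 7.98 and 6.82 (-0.85 ± 0.45), so that control apex replicate 1 was the higher control, and without it the difference was -0.27. In the base the list's median was -0.87.

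Markers of macrophages and other leukocytes did not separate the genotypes in the same samples. Their median was 0.02, and the groups overlapped in all 14 tested. The median moved to -0.31 without control apex replicate 1, with 14 of 14 negative, and to 0.39 without control apex replicate 2, with 14 of 14 positive, so this list followed the spread between the controls. The summed linear signal of the leukocyte markers was 9672 and 11720 in cKO and 8134 and 13310 in controls. The summed signal of the interferon list was 9403 and 8596 in cKO and 12490 and 11700 in controls, so these groups did not overlap. Its median was -0.58 without control apex replicate 2 and -0.34 without control apex replicate 1. The part of leukocytes in the interferon values was not tested.

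**Figure D2:**
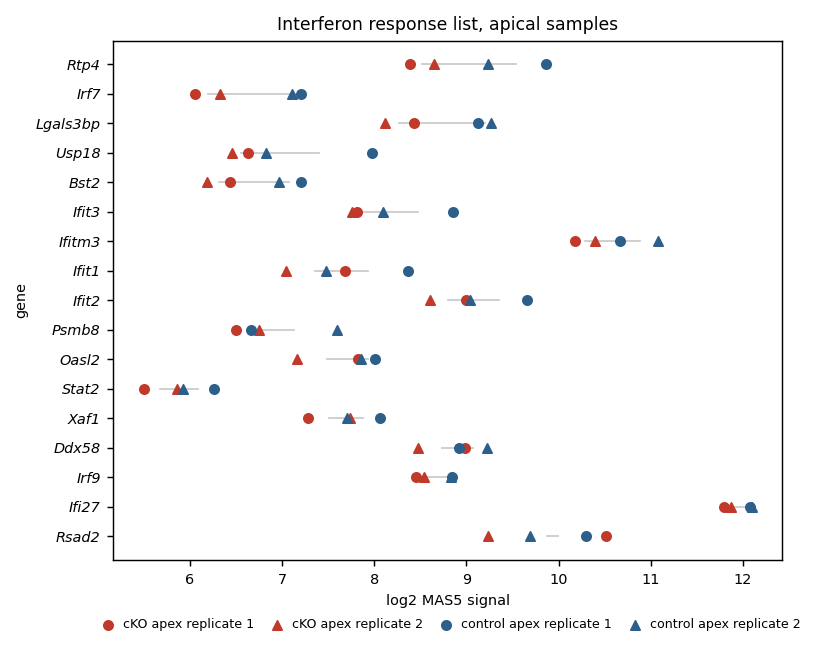
Log2 MAS5 signal (x axis) of the 17 tested interferon response genes (y axis) in the 4 apical samples, ordered by the difference between group means, with symbols for genotype and replicate as in the key. In 12 genes both cKO samples (red) lie to the left of both controls (blue), and in Ifit1, Psmb8, Xaf1, Ddx58 and Rsad2 the groups overlap.

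The promoters of this list are shown because its members lay on the same side. An interferon-stimulated response element was searched as GAAANNGAAA on both strands, overlapping matches included, in the window of 250 bases before to 50 after each RefSeq start on GRCm38.p6. Of the 14 tested members with a window, 7 (50%) held a match in at least 1 window, against 381 of 10629 tested genes (3.58%) and 1131 of all 32851 windows (3.44%). A match is a description of the letters and no evidence of binding. The list was made of interferon-induced genes, so its higher share comes with the choice of list and is no result about the genotypes. The windows of 3 of the members follow, 5′ to 3′ on the strand of the gene, with the matches in capitals (in Stat2 the match lies on the opposite strand, and in Bst2 the 2 matches overlap):
Bst2, chr8:71537423-71537722, minus strand: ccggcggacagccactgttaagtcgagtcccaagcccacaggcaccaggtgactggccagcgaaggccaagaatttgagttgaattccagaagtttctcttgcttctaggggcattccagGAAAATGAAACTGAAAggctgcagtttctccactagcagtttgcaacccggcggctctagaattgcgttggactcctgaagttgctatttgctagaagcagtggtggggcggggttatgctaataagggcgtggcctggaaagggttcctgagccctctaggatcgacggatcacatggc
Ifitm3, chr7:141010695-141010994, minus strand: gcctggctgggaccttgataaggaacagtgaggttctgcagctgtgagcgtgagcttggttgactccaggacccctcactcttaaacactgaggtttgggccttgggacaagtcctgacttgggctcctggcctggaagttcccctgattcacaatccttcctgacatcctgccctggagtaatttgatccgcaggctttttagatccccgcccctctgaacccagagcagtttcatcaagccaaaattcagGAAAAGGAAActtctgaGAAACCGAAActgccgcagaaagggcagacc
Stat2, chr10:128270248-128270547, plus strand: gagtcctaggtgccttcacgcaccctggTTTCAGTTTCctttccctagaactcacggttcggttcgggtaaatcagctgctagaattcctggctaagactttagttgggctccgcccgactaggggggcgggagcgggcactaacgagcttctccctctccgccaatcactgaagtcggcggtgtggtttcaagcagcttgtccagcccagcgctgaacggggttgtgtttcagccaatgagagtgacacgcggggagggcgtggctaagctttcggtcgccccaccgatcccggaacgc
Stat2, a transcription factor of interferon signalling, was at 5.50 and 5.86 in cKO and 6.26 and 5.92 in controls. The windows of Irf7, Irf9 and Lgals3bp held no match.

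Stress and injury genes gave smaller shifts. Of 17 immediate early and heat shock genes, 13 had a negative difference (median -0.17). The chaperone Hspa1b was at 9.83 and 10.05 in cKO and 11.03 and 10.35 in controls (-0.75 ± 0.38), Hspa1a gave -0.58 ± 0.27, and these became -0.41 and -0.19 without control apex replicate 1. The small chaperone Hspb1 was at 9.41 and 9.91 against 10.16 and 10.04 (-0.45 ± 0.24), but a second probe set gave 0.05. Atf3, an early marker of stressed neurons and glia, was at 6.44 and 6.26 against 7.10 and 6.75. The list's median was -0.06 without control apex replicate 1. Genes of p53 and apoptosis had a median of 0.15, with 10 of 15 positive: the death promoter Bid was at 7.30 and 7.22 against 6.72 and 6.62 (0.59 ± 0.26), the cell cycle inhibitor Cdkn1a at 13.11 in both cKO samples against 12.92 and 12.93 (0.19 ± 0.10), and Mdm2, which degrades p53, gave -0.39 ± 0.23, but 0.28 from a second probe set. The glial scar list had a median of 0.17, with 6 of 10 positive, and without control apex replicate 1 a median of -0.25, with 2 of 10 positive. Serpina3n, given above, was its only member with an unadjusted p under 0.05.

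Blood, vessel, nerve and connective tissue genes were read in the same samples. Of 13 neutrophil granule genes 10 were positive (median 0.18), and both cKO samples lay above both controls in 4 (15% of all genes), which were Elane, Prtn3, Mpo and Ltf. The granule protease gene Elane was at 6.04 and 6.58 in cKO and 3.15 and 5.25 in controls, and Prtn3 at 6.98 and 7.69 against 6.24 and 6.51 (0.96 ± 0.36). Mpo, the peroxidase of the same granules, was at 7.31 and 7.70 against 6.59 and 6.52 (0.95 ± 0.59). Ltf, which encodes lactoferrin, was at 8.60 and 8.78 against 8.41 and 8.53 (0.22 ± 0.22). The groups overlapped in the other 9, among them the granule protease Ctsg, Camp, S100a8 and S100a9. The list's median was -0.08 without control apex replicate 1. Erythroid genes had 8 of 10 negative (median -0.15), with Hemgn, a nuclear protein of red cell precursors, at 6.62 and 7.13 against 7.74 and 7.94 and the erythropoietin receptor Epor at 6.04 and 6.27 against 6.55 and 6.90. Endothelial genes went both ways, with 5 of 10 positive and 5 negative (median -0.10). The lowest difference among them was that of Vwf, at 8.83 and 8.41 against 9.19 and 9.10 (-0.52 ± 0.23). Fibrocyte and mesenchyme genes were positive in 12 of 14 (median 0.18), with Otor at 0.30 ± 0.13, but the matrix genes Ogn (-0.32 ± 0.12) and Postn (-0.54 ± 0.23) lay on the other side.

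The summed signal of melanocyte genes was 6663 and 7733 in cKO and 11050 and 6757 in controls, and their median difference of -0.28 became 0.12 without control apex replicate 1. The strial channel genes Kcnq1 and Kcne1 also turned, from -0.55 to 0.21 and from -0.66 to 2.02. Medians were -0.05 for the stria vascularis, -0.08 for neurons, 0.01 for myelin and Schwann cells, 0.00 for the cell cycle, -0.08 for bone and 0.11 for skeletal muscle, of which 4 members were tested. Without control apex replicate 1 the median was 0.17 for the stria vascularis and -0.03 for skeletal muscle. Among lists given above it was then 0.03 for p53 and apoptosis, -0.48 for erythroid and -0.26 for endothelial genes. The part of these tissues in the differences above was not tested.

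**Figure D3:**
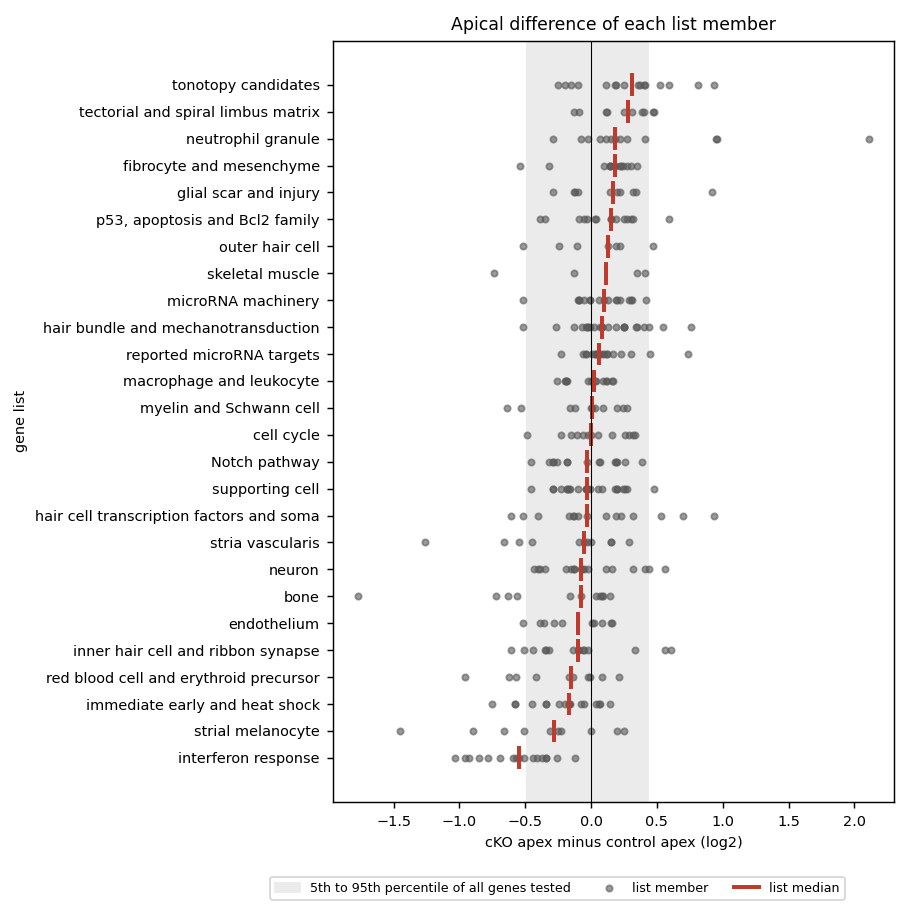
Difference between cKO and control apex (x axis, log2) for each tested member (grey points) of 26 gene lists (y axis), with the list median as a red bar and the 5th to 95th percentile of all 13221 genes, -0.49 to 0.43, as a grey band. Medians run from -0.55 for the interferon response, whose 17 members all lie below 0, to 0.31 for the tonotopy candidates.

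Whether a genotype difference in the apex differed from that in the base was tested as the difference of the 2 differences. No gene passed (0% at an adjusted p under 0.05 by limma), and 149 (1.13%) had an unadjusted p under 0.05, of which 73 had the higher difference in the base and 76 in the apex. With the presumed mouse of each apex and base sample as a random block, 273 had an unadjusted p under 0.05 and 0 passed. The unadjusted counts were 955 without control base replicate 1 and 681 without control base replicate 2. Several of the leading apical genes had a difference near 0 or of the other sign in the base. They were named for a small p in the apex, and the same apical values enter the test between regions. A smaller or opposite difference in the base is therefore no independent evidence about them. Clasrp gave -1.66 ± 0.24 in the apex and 0.19 ± 0.24 in the base, and Steap4 -1.02 ± 0.20 and 0.58 ± 0.20. Celsr2 gave 0.74 ± 0.17 and -0.18 ± 0.17. In Clasrp the cKO apex (7.53 and 7.22) and the control apex (9.25 and 8.82) lay on either side of the 4 basal samples, which ran from 7.88 to 8.26. Uroc1, an enzyme of histidine breakdown, gave -1.36 ± 0.38 in the apex and 1.13 ± 0.38 in the base (-0.89 in the apex without control apex replicate 1), and Hemgn -0.96 ± 0.43 and 1.88 ± 0.43. Each of these had an unadjusted p under 0.05 and an adjusted p = 1 for the difference in limma.

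In the base, 26 of the 55 tested hair cell genes had a positive and 29 a negative difference, with a median of -0.05. The lists differed there. The base median was -0.39 for transcription factors and soma genes and -0.31 for outer hair cell genes. It was -0.1 for hair bundle genes and 0.03 for inner hair cell and ribbon synapse genes. Of the 55, 7 (12.7%) had an unadjusted p under 0.05 with a lower difference in the base (0.575% of all genes) and 0 in the other direction, and none passed the adjusted threshold in limma. In the base 9 of the 55 had an unadjusted p under 0.05 and a lower mean in cKO (3.12% of all genes in either direction). The 7 were the bundle genes Strc, whose product stereocilin forms horizontal top connectors (0.40 ± 0.52 in the apex, -1.82 ± 0.52 in the base), Fscn2, an actin bundler (0.08 ± 0.37 and -1.40 ± 0.37), Lhfpl5, a subunit of the transduction channel (0.25 ± 0.31 and -0.77 ± 0.31), and Pcdh15 (0.34 ± 0.25 and -0.57 ± 0.25). The others were the synaptic calcium sensor Cabp2 (-0.14 ± 0.30 and -1.49 ± 0.30), Smpx, a cytoskeletal protein (-0.10 ± 0.24 and -1.01 ± 0.24), and Acbd7 (-0.52 ± 0.25 and -1.39 ± 0.25). In the apex Strc was at 9.33 and 8.77 in cKO and 8.53 and 8.77 in controls, and Cabp2 at 8.78 and 8.34 against 8.58 and 8.81, so neither separated the genotypes there. The count was 1 without cKO apex replicate 1 or without control apex replicate 1, 4 without cKO apex replicate 2 or without cKO base replicate 2, and 11 without control base replicate 2.

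**Figure D4:**
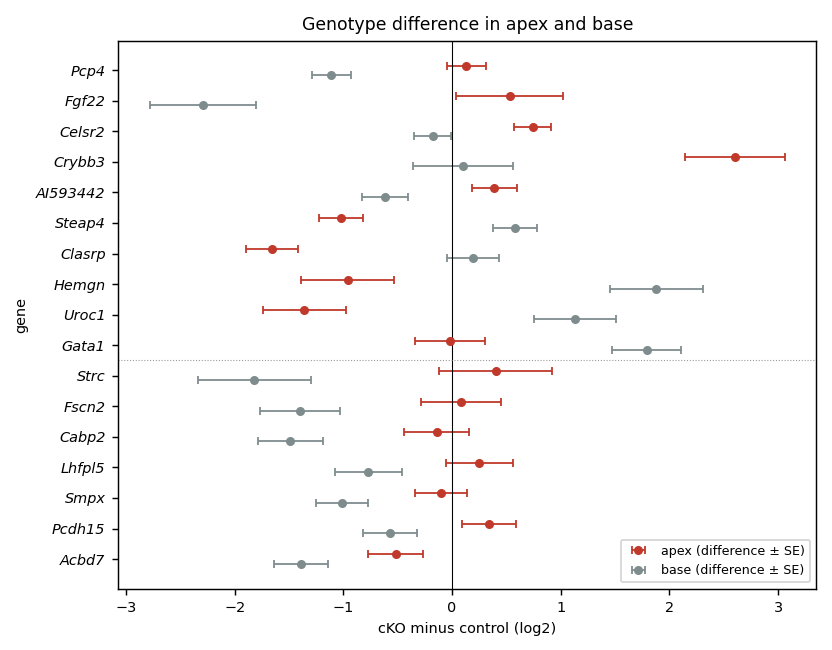
Genotype difference (x axis, cKO minus control in log2, with SE bars) in the apex (red) and the base (grey). Above the dotted line stand the 5 genes of smallest p in each direction for the difference between regions, and below it the 7 hair cell genes with an unadjusted p under 0.05. Clasrp lies at -1.66 in the apex and 0.19 in the base, and in the base the 7 hair cell genes lie between -1.82 for Strc and -0.57 for Pcdh15.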

How the data were processed

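Gene expression was measured on 1 Affymetrix array per sample, and the authors deposited each probe set's MAS5 intensity, unlogged, scaled to a trimmed mean of 500 on each array (2% off each end), as the values show. The submitters' processing notes name MAS5 and affy 1.26, without roles. No detection calls were used here. Median signals of the 4 apical arrays ran from 72.6 to 100.

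Of 45101 probe sets, 34945 named 1 gene in the supplied annotation, giving 18193 genes, each read from its probe set of highest mean log2 value. The 13221 genes at or above the 40th percentile of all probe sets (5.274) were tested, on log2 values with no pseudocount. All 8 arrays, in 4 groups, entered 1 limma fit (version 3.58.1, R 4.3.3) whose prior variance followed intensity; it had 4 residual and 3.46 prior degrees of freedom. Tests were two-sided. Standard errors come from that fit. Genes were named by p (10 per direction) and by gap (10 per direction). Both rules took only genes whose apical groups did not overlap and whose 2 apical means were at or above the filter. Others were the 4 members of smallest p per list and a fixed set, and 5 per direction were named for the difference between regions. Maz, Fbxl8, Ltf and Ctsg, the second probe sets, Kdm5d, Uty, Eif2s3y and the genes near Dicer1 were named after their values were seen. The members and lists were chosen with earlier results of these data known. List genes without a single-gene probe set were not analysed here. Alternatives were 11 other settings and leaving out each sample. With 2 samples a group, the number of arrays limits precision. Replicate numbers of the 2 genotypes belong to different mice.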

Additional observations from a re-analysis of the deposited data

How the results depend on the processing

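No gene passed the adjusted threshold in the apex under the 15 alternatives except 1, Tmem267, in the fit without an intensity trend (2.57, adjusted p = 0.0323; 0.0323 to 1 over all alternatives), and the fits without 1 apical sample gave 0. The 290 genes at an unadjusted p under 0.05 became 544 with no filter and 618 with the replicate block, and 198 to 436 without 1 sample. Same-numbered apical samples of the 2 genotypes come from different mice and their deviations correlated at -0.0312. This 1 value cannot decide whether the number marks some other pairing, such as a litter, which was not tested. Apex and base samples of 1 genotype and number were presumed to share a mouse (correlation 0.236 in limma). The 18 genes at least 2-fold apart became 385 with no filter, 4 with the filter at the 60th percentile, 8 with a pseudocount of 16, 11 with low values raised to the filter, and 106 to 235 without 1 sample. For the difference between regions, 0 genes passed throughout, and the 149 at an unadjusted p under 0.05 became 389 with no filter, 273 with the presumed mouse as a random block, and 112 to 955 without 1 sample, basal ones included. The leave-outs of basal samples and the settings for the hair cell count (1 to 11 without 1 sample) were chosen after seeing the data.

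Of 286 list medians under 11 other settings, 271 stayed within the spread between replicates. The exceptions were hair cell transcription factors and soma (0.11), Notch (-0.13) and skeletal muscle (0.29) with no filter, skeletal muscle (-0.43) with the 60th percentile, and, with probe sets averaged, outer hair cell (-0.19), inner hair cell (-0.24), stria vascularis (-0.45), fibrocyte (0.09) and p53 (-0.06). Fibrocyte was 0.06 under quantile normalization and 0.22 under 75th percentile centring, myelin -0.04 and 0.05, with -0.02 at a pseudocount of 16, and Notch 0.01 under that centring. Without 1 sample the medians of the lists were, in log2, -0.47 to 0.13 for bone, -0.22 to 0.20 for cell cycle, -0.26 to -0.04 for endothelium, 0.11 to 0.19 for fibrocyte and mesenchyme, -0.25 to 0.52 for glial scar and injury, 0.05 to 0.25 for hair bundle and mechanotransduction, -0.06 to 0.21 for hair cell transcription factors and soma, -0.27 to -0.06 for immediate early and heat shock, -0.22 to -0.03 for inner hair cell and ribbon synapse, -0.74 to -0.34 for interferon response, -0.31 to 0.39 for macrophage and leukocyte, -0.01 to 0.14 for microRNA machinery, -0.02 to 0.06 for myelin and Schwann cell, -0.21 to 0.00 for neuron, -0.08 to 0.52 for neutrophil granule, -0.06 to 0.06 for Notch pathway, -0.11 to 0.29 for outer hair cell, 0.03 to 0.16 for p53, apoptosis and Bcl2 family, -0.48 to 0.01 for red blood cell and erythroid precursor, 0.05 to 0.16 for microRNA targets, -0.07 to 0.20 for skeletal muscle, -0.03 to 0.17 for stria vascularis, -0.74 to 0.15 for strial melanocyte, -0.09 to 0.06 for supporting cell, 0.01 to 0.53 for tectorial and spiral limbus matrix and 0.22 to 0.43 for tonotopy candidates.

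Of 130 named genes, 26 turned sign in 38 values. Leaving out 1 apical sample turned Cabp2 (-0.36 to 0.08), Calb1 (-0.07 to 1.94), Chrna9 (-0.11 to 0.54), Dct (-3.74 to 1.94), Dicer1 (-0.28 to 0.10), Espn (-0.01 to 1.11), Fgf22 (-0.02 to 1.08), Fscn2 (-0.24 to 0.41), Gata1 (-0.16 to 0.12), Gfi1 (0.00 to 0.47), Kcne1 (-3.35 to 2.02), Kcnq1 (-1.32 to 0.21), Lhfpl5 (-0.01 to 0.52), Lmod3 (-0.03 to 0.98), Myo7a (-0.41 to 0.34), Pcp4 (-0.07 to 0.34), Pou4f3 (-0.65 to 2.04), Smpx (-0.40 to 0.20), Sox2 (-0.13 to 0.04), Tectb (-0.06 to 0.86) and Xist (-4.97 to 1.04). Averaging probe sets turned Ikzf2 (-0.30), Myo6 (-0.56), Rtp4 (0.01), St3gal6 (0.11) and Trmt2b (1.41). Quantile normalization and 75th percentile centring gave 0.01 and 0.02 for Gata1 and 0.01 in both for Myo7a, and the centring 0.00 for Sox2. The causes of these turns were not tested. A lone sample of a group is assumed to vary like the other groups, and the number of arrays limits every value.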

Other observations

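In the RefSeq gene order of chromosome 12, the tested gene next to Dicer1 on 1 side, Serpina3n, was also among the genes of smallest p on the higher side in the apex (0.92 ± 0.22). Places were counted among tested genes only. Among all RefSeq genes, 20 such places on each side reached from -82 to 78, and Serpina3n was at -6. Of the 40 tested genes within 20 such places of Dicer1, 4 (10%) had an unadjusted p under 0.05 in limma. The share was 13 of 471 (2.76%) on the whole chromosome and 2.19% over all genes. Itpk1, an inositol phosphate kinase, was at 11.94 and 11.73 in cKO and 11.18 and 11.49 in controls (0.50 ± 0.17), and Degs2, a ceramide hydroxylase, at 10.35 and 10.29 against 9.76 and 9.87 (0.51 ± 0.17). The interferon-induced Ifi27l2a, which was not in the interferon list, was at 7.65 and 7.33 against 8.85 and 8.46 (-1.16 ± 0.43). In the base the differences were 0.67 for Serpina3n and -1.21 for Ifi27l2a, but -0.08 for Itpk1 and 0.14 for Degs2. The window of 20 places was chosen after Serpina3n had been seen, and no test of it was made.

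Among Y-linked genes the second control, a male, differed from the cKO males in Kdm5d, a histone demethylase, at 6.35 against 8.47 in both cKO samples, and control base replicate 2 had 5.95 against 8.19 and 8.32 in the basal cKO samples. For Uty, another demethylase gene, the second apical control was at 8.25 against 8.34 and 7.76 in the apical cKO samples. Dimmer Uty probe sets over the filter gave 7.25 against 7.47 and 6.89, and 6.46 against 8.22 and 7.46. For Eif2s3y, a translation factor, that control was at 8.97 against 8.12 and 10.30.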
